A study of Mus musculus with 2 samples.

Results

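The transcripts described here are those of 10 genes, which encode secreted vascular growth factors and a co-receptor, in 4T1, a line of mouse mammary carcinoma cells. They were chosen by gene symbol from 51912 rows with Ensembl identifiers. The members are 4 ligands of the vascular endothelial growth factor (VEGF) family (Vegfa, Vegfb, Vegfc, Pgf), the platelet-derived growth factor (PDGF) genes Pdgfa and Pdgfb, the angiopoietin-like genes Angptl2, Angptl4 and Angptl6, and the co-receptor gene Nrp1. In the co-culture group, 4T1 cells lay in the lower chamber of a transwell for 3 days with M2 macrophages, the alternatively activated form, in the upper chamber. The control group was the same line, labelled only as control, with no description of its chambers. Each group had 1 library of total RNA with no replicate, so every value is a single measurement and every difference compares these 2 libraries. No test between groups could be made, and differences carry no error. The title of the co-culture library reads 4T2, whereas its treatment label and its table column read 4T1, and the treatment label was followed.

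VEGF ligands are dimeric secreted proteins that act on receptor tyrosine kinases of endothelial cells. VEGFA signals mainly through KDR (VEGFR2), PGF and VEGFB bind FLT1 (VEGFR1), and VEGFC drives lymphatic vessel growth through FLT4 (VEGFR3). PDGF ligands recruit pericytes and fibroblasts through PDGFRA and PDGFRB, and neuropilins hold VEGF and class 3 semaphorins at the cell surface. Angiopoietin-like proteins resemble angiopoietins in domain structure but do not bind the angiopoietin receptor TEK. They act instead on integrins, on leukocyte receptors or, for ANGPTL4, on lipoprotein lipase.

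The stretches of promoter below show the start regions of the gene with the lowest ratio (Angptl6), of a gene with a higher value in co-culture (Pdgfa) and of the 2 VEGF genes with the lowest ratios of their family (Vegfa and Vegfb). Sequences are from RefSeq on GRCm38.p6, 5′ to 3′ on the strand of the gene, and end before a RefSeq start, with no base in a GENCODE M21 exon of the gene. The Pdgfa stretch lies inside the GENCODE span of that gene, downstream of an earlier annotated start, and the other 3 lie outside the span of their gene. They lie at chr9:20879728-20879960 (minus strand), chr5:138995038-138995194 (minus), chr17:46032378-46032627 (minus) and chr19:6987652-6987901 (minus). Capitals mark ACGTG or GCGTG on either strand, the core letters of the hypoxia response element.
Angptl6: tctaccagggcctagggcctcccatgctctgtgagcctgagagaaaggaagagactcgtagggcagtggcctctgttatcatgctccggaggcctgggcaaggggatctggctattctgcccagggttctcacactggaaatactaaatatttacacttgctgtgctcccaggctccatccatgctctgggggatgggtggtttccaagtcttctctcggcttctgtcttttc
Pdgfa: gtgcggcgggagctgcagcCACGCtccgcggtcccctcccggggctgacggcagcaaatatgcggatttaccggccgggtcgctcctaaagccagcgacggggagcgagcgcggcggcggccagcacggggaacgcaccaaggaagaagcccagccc
Vegfa: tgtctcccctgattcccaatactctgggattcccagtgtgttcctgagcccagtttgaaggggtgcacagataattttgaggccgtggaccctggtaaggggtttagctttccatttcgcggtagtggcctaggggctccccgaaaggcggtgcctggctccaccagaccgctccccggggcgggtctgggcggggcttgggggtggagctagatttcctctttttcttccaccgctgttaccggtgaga
Vegfb: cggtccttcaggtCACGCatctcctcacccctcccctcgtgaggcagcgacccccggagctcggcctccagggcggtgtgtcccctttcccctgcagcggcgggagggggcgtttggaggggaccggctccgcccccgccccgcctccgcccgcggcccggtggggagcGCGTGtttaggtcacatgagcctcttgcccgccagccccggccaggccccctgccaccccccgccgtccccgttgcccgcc
The core letters stand once in the Pdgfa stretch and at 2 places in that of Vegfb. Neither the Angptl6 nor the Vegfa stretch holds them, and bases farther upstream were not searched.

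RefSeq windows of 300 bases, 250 before and 50 after a start, were held for 8 of the 10 genes and numbered 11, since some genes have several starts. The hypoxia core was present in 5 of these 11 windows, and 43.8% of all 32851 windows in the table held it. Besides Pdgfa and Vegfb, matches lay 124 bases upstream of a Pgf start and 166 bases upstream of an Nrp1 start. These windows lie inside the GENCODE span of their gene. Matches for Vegfa lay 218 and 211 bases upstream of an internal start. A CACGTG would count on both strands. The letters TGATGNAA, a form of the element bound by ATF4 and CEBP proteins, were in none of the 11 windows on either strand, and 3.97% of all windows held them. These matches describe letters in a window and not binding.

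TPM, the deposited unit, divides reads by transcript length and scales each library to the same total, so levels can be compared between genes but depth is unknown. The log2 ratio used throughout is log2((co-culture TPM + 1)/(control TPM + 1)), which understates differences of low genes. A gene was detected when its mean TPM over the 2 libraries was at least 1, and 11258 genes were. All 10 members were detected, and they were chosen with earlier results of these data known. Over the detected genes the median log2 ratio was 0.17, so a small positive ratio is the usual value here. Scaling co-culture TPM to the median ratio over genes averaging 10 TPM or more, or by a trimmed mean of ratios (TMM), shifts every gene by -0.12 or -0.19 on the log2 scale, before the pseudocount is added. Of 8 epithelial markers 5 were detected, with a median log2 ratio of 0.20. Of these, 1 was 2-fold higher, beside 4.95% of all detected genes. That gene was Krt19, with 2.64 TPM in co-culture and 0.18 TPM in the control, and Cldn3 and Krt7 had ratios of 0.72 and 0.19. Keratin genes Krt8 and Krt18 had 630 and 484 TPM in co-culture, against 548 and 439 TPM in the control, whereas Epcam was listed at 0 in both libraries and Cdh1 had 0.01 TPM in co-culture and 0.04 TPM in the control.

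Of the 10 genes, 6 had higher values in co-culture and 4 had lower ones (Vegfc among them, whose sign turned with 1 scaling), and 64.5% of all detected genes had higher values. By the 2-fold rule (a log2 ratio of at least 1 or at most -1) 1 member was higher, Pgf, beside 4.95% of all detected genes. The 2-fold lower member was Angptl6, 1 of 10, beside 2.14% of all detected genes. The members' median was 0.30, and 6 of them lay above the median of all detected genes. With 1 gene in 10 each, neither count is read as a property of these families.

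**Figure D1:**
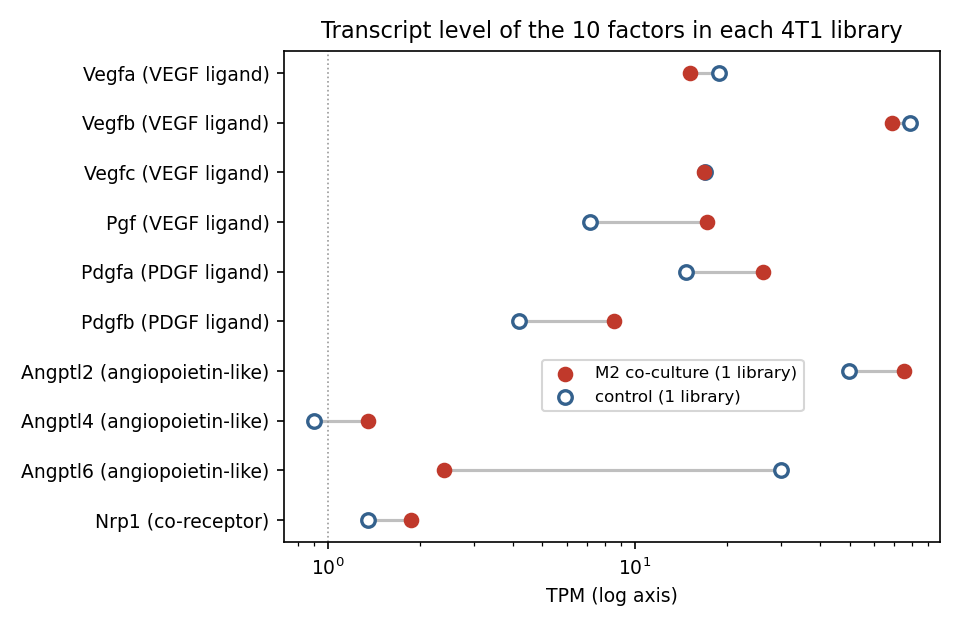
TPM of each gene (log axis) in the co-culture library (filled red) and the control library (open blue), 1 library each, with a dotted line at 1 TPM. Angptl6 spans the widest gap, 2.38 TPM in co-culture against 29.9 TPM in the control, while the 2 points of Vegfc coincide.

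Among the VEGF ligands, only Pgf differed by 2-fold. Pgf encodes placental growth factor (ENSMUSG00000004791, chromosome 12 from 85166635 to 85177790, minus strand) and had 17.1 TPM in co-culture against 7.13 TPM in the control. The plain ratio was 2.40 and the log2 ratio 1.16, and 3.17% of detected genes had a higher ratio. This call sat near the threshold, with a log2 ratio of 0.87 at a pseudocount of 5 and 0.98 with the TMM factor.

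Vegfa, the main inducer of vessel sprouting (chromosome 17 from 46016993 to 46032369, minus strand), had 15.1 TPM in co-culture and 18.8 TPM in the control, a log2 ratio of -0.30. GENCODE M21 lists 13 transcripts for it, 8 of them protein-coding, and the gene-level table does not separate them. Vegfb (chromosome 19 from 6982473 to 6987651, minus strand), a FLT1 ligand linked to fatty acid handling in muscle and heart, had 68.8 TPM in co-culture and 78.7 TPM in the control, a log2 ratio of -0.19. Vegfc (chromosome 8 from 54077606 to 54187096, plus strand) had 16.8 TPM in co-culture and 16.9 TPM in the control. Its log2 ratio of -0.01 became 0.01 after rescaling without mitochondrial and the 20 most abundant genes, so it has no direction.

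The summed TPM of the 5 VEGF ligand genes, Vegfd included, was nearly the same in the libraries, 118 in co-culture and 122 in the control, while its make-up differed. Pgf made up 14.5% of the sum in co-culture and 5.86% in the control. Vegfb was the largest part, with 58.1% in co-culture and 64.7% in the control, and Vegfa had 12.7% and 15.4%, in the same order. Within a library, the level of Pgf was 1.14 times that of Vegfa in co-culture and 0.38 times in the control, so their order was reversed. Vegfd, another lymphatic ligand, was not detected, at 0.66 TPM in co-culture and 0.21 TPM in the control. These within-library ratios do not depend on how the libraries are scaled.

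**Figure D2:**
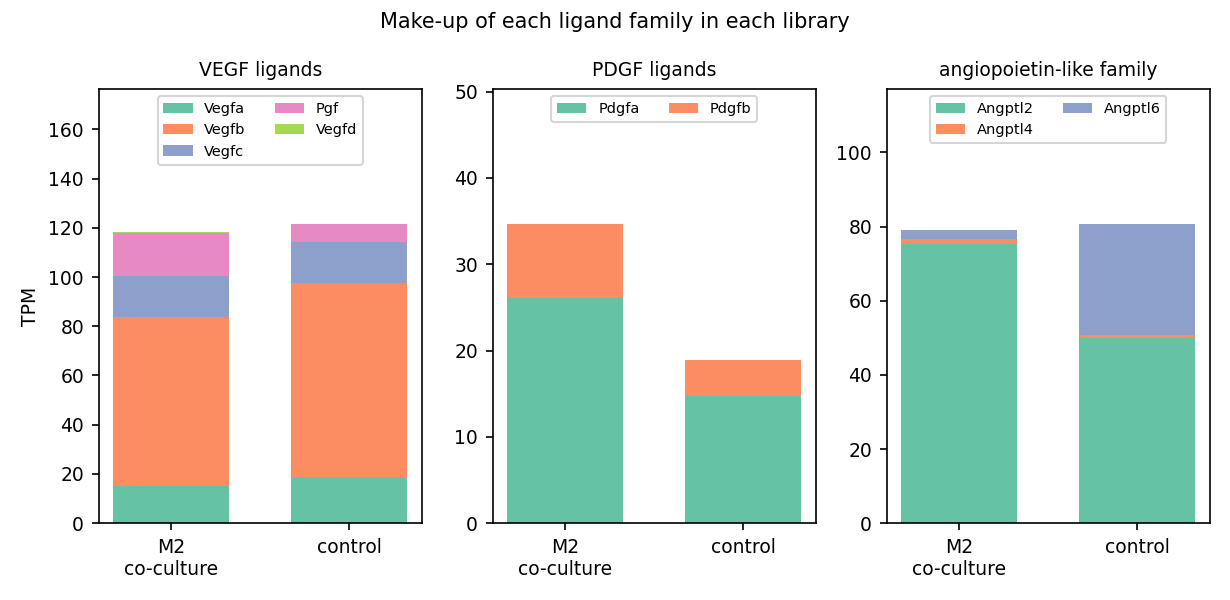
Stacked TPM of the VEGF ligands, PDGF ligands and angiopoietin-like genes in the co-culture library (left bar) and the control library (right bar), with a separate linear axis from 0 in each panel. The VEGF and angiopoietin-like bars are of similar height in each pair (118 and 122 TPM, 79.1 and 80.8 TPM) but divided differently, and the PDGF bar is taller in co-culture (34.7 TPM against 18.9 TPM).

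Of the receptors that read these ligands, Flt1 was detected and had 9.83 TPM in co-culture against 6.54 TPM in the control, a log2 ratio of 0.52. Kdr and Flt4 were listed at 0 in both libraries. Nrp1 (chromosome 8 from 128358604 to 128503363, plus strand), a co-receptor for VEGFA and for class 3 semaphorins, was low, with 1.86 TPM in co-culture and 1.35 TPM in the control. Its log2 ratio of 0.28 was 0.12 above the median of all detected genes. The paralog Nrp2 was the main neuropilin of these cells, at 83.2 TPM in co-culture and 77.7 TPM in the control, which was 44.8 times the level of Nrp1 in co-culture and 57.5 times in the control. The log2 ratio of Nrp2, 0.10, is smaller than the shift between scalings.

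Class 3 semaphorins, the other neuropilin ligands, and their plexin receptors had 6 of 12 genes detected, with a median of 0.26. None of the 6 was 2-fold different, beside 4.95% of all detected genes higher and 2.14% lower. Sema3f had the largest ratio, 0.75, with 149 TPM in co-culture and 88.0 TPM in the control, a higher level than any VEGF ligand. Plxna1 and Plxnd1 had ratios of 0.70 and -0.32. Among 8 genes for processing of growth factors 6 were detected, 1 of them 2-fold higher and none lower, beside 4.95% and 2.14% of all detected genes. That gene was Plau (urokinase), at 108 TPM in co-culture and 24.9 TPM in the control. Furin, a convertase that cleaves the precursors of VEGFC and PDGF chains, had a ratio of 0.65. Ccbe1 and Adamts3, whose products act together in the activation of VEGFC, had ratios of 0.40 and -0.16.

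Both PDGF ligand genes had higher values in co-culture, under every pseudocount and scaling tried. Pdgfa (ENSMUSG00000025856, chromosome 5 from 138976014 to 138997370, minus strand) had 26.1 TPM in co-culture against 14.7 TPM in the control, a log2 ratio of 0.79. Pdgfb (ENSMUSG00000000489, chromosome 15 from 79995874 to 80014977, minus strand) had 8.55 TPM in co-culture against 4.19 TPM in the control, a log2 ratio of 0.88. Neither reached the 2-fold threshold, and 9.78% and 7.32% of detected genes had ratios above theirs. For Pdgfb the plain ratio was 2.04, and at a pseudocount of 0.1 its log2 ratio was 1.01, past the threshold.

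The summed PDGF ligand TPM was 34.7 in co-culture and 18.9 in the control, a ratio of 1.83 that lay between 1.61 and 1.86 over the 3 other scalings. Pdgfa stood 3.06 times above Pdgfb in co-culture and 3.51 times in the control, so both chains differed by a similar factor. Pdgfc and Pdgfd, the other ligands of the family, were listed at 0 in both libraries. Pdgfra, the receptor for both chains and also a fibroblast marker, had 10.2 TPM in co-culture and 5.60 TPM in the control, a log2 ratio of 0.76. Pdgfrb, which binds the B chain, was not detected, at 0.65 TPM in co-culture and 0.75 TPM in the control. Pdgfa overlaps the antisense gene 6330403L08Rik over 2315 bases, and that gene had 1.18 TPM in co-culture and 0.77 TPM in the control. Strandedness of the libraries is not stated, so reads of the overlap cannot be assigned to one of them.

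The detected angiopoietin-like genes had ratios of opposite sign. Angptl6 (ENSMUSG00000038742), which encodes a secreted factor also called angiopoietin-related growth factor and known in mice for effects on energy metabolism and vessel growth, had 2.38 TPM in co-culture against 29.9 TPM in the control. Its level was 12.6-fold lower in co-culture by the plain ratio, with a log2 ratio of -3.19. It had the third highest level of the 10 genes in the control and the eighth highest in co-culture. Of the 11258 detected genes 24 had a lower ratio, and of the 25 genes at or below it 16 were listed at 0 in co-culture. Among 10367 detected protein-coding genes, 7 had a lower ratio. The log2 ratio of Angptl6 ranged from -3.60 to -2.24 over the pseudocounts and scalings.

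**Figure D3:**
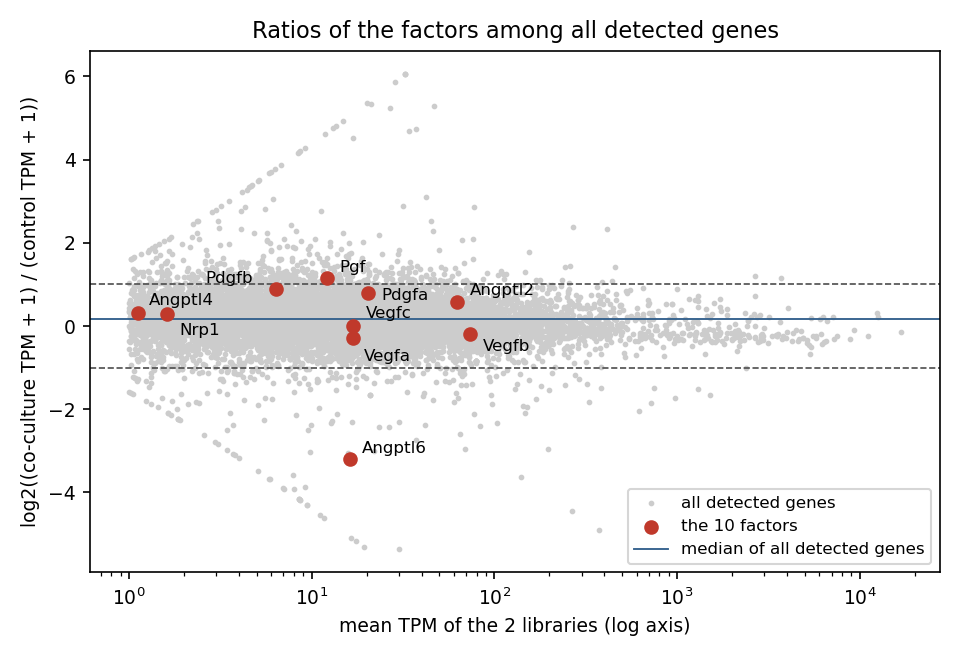
Log2 ratio, co-culture over control, of every detected gene (grey) against its mean TPM (log axis), with the 10 genes in red, dashed lines at 1 and -1 and a blue line at the median of all detected genes, 0.17. Angptl6 lies at -3.19, Pgf lies just above the upper line at 1.16, and the other 8 lie between the lines.

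Angptl6 lies on chromosome 9 from 20873808 to 20879727 on the minus strand and has 1 annotated transcript in GENCODE M21. Its last 500 bases overlap the end of A230050P20Rik on the opposite strand, a gene with 3.99 TPM in co-culture and 6.20 TPM in the control. Within 100 kb, 5 other protein-coding genes were detected. The nearest upstream genes Ppan (ribosome biogenesis) and Eif3g (translation initiation) had log2 ratios of -0.51 and -0.63, and A230050P20Rik had -0.53. Farther upstream, Dnmt1 (maintenance DNA methylation) and S1pr2 (a sphingosine 1-phosphate receptor) had 0.35 and 0.57. None of these neighbours differed by 2-fold, beside 4.95% of all detected genes higher and 2.14% lower.

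**Figure D4:**
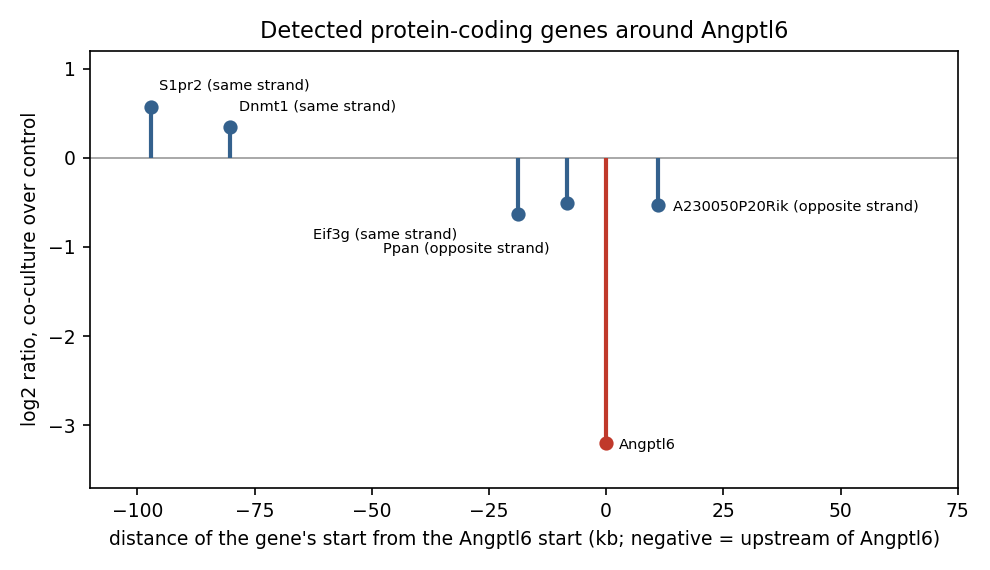
Log2 ratio, co-culture over control, of the detected protein-coding genes within 100 kb of Angptl6 (vertical axis) against the distance of each gene's start from the Angptl6 start in kb (horizontal axis, upstream to the left). Angptl6 (red, -3.19) lies far below its neighbours (blue), which range from -0.63 to 0.57.

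Angptl2 (ENSMUSG00000004105, chromosome 2 from 33216069 to 33247717, plus strand), a secreted protein linked to chronic inflammation that binds the integrin alpha5 beta1, had the highest level of the 10 genes in co-culture. It had 75.4 TPM in co-culture against 49.9 TPM in the control, a log2 ratio of 0.59 with 18.6% of detected genes above it. Angptl2 lies wholly within Ralgps1 on the opposite strand, which had 0.56 TPM in co-culture and 0.58 TPM in the control. Angptl4 (chromosome 17 from 33773750 to 33781830, minus strand), an inhibitor of lipoprotein lipase induced by fasting, PPAR factors and hypoxia, was the lowest of the 10, with 1.35 TPM in co-culture and 0.90 TPM in the control. Its log2 ratio of 0.31 ranged from 0.11 to 0.54 over the pseudocounts and scalings. Angptl1 and Angptl8 were listed at 0 in both libraries, and Angptl7 was listed at 0 in co-culture and had 0.02 TPM in the control.

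The sum over the angiopoietin-like genes was 79.1 TPM in co-culture and 80.8 TPM in the control. Angptl6 made up 3.01% of it in co-culture and 37.1% in the control, and Angptl2 made up 95.3% and 61.8%, in the same order. Angptl2 had 31.7 times the level of Angptl6 in co-culture and 1.67 times in the control. Of the angiopoietins themselves, Angpt2, an antagonist of TEK in many settings, was the only one detected, at 3.81 TPM in co-culture and 2.48 TPM in the control. Tek was listed at 0 in both libraries.

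Partners of angiopoietin-like proteins were detected for 7 of 11 genes, and all 7 had ratios above the median of all detected genes. Lipg was among them only through its co-culture value, at 1.93 TPM there and 0.90 TPM in the control. Of the 7 genes 2 were 2-fold higher and none lower, beside 4.95% and 2.14% of all detected genes. The list median was 0.69. Itgb3 and Itgav, the subunits of the integrin alphaV beta3, had log2 ratios of 1.72 and 1.22. For Itgav the level was 59.5 TPM in co-culture and 24.98 TPM in the control. Sdc4, a heparan sulphate proteoglycan, had a ratio of 0.91, and the fibronectin receptor genes Itga5 and Itgb1, whose product binds ANGPTL2, had 0.43 and 0.33. Lpl, the lipase that ANGPTL4 inhibits, was not detected, at 0.08 TPM in co-culture and 0.29 TPM in the control.

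Genes that act upstream of these factors gave a mixed picture. HIF1A drives Vegfa transcription in low oxygen, and Hif1a itself had 19.6 TPM in co-culture and 19.4 TPM in the control. In the list of HIF regulators 7 of 8 genes were detected and 1 was 2-fold higher (4.95% of all detected genes were), Egln3, with a log2 ratio of 1.32. The ratio was 0.82 for Egln1 and 0.52 for Vhl, and the list median of 0.14 became -0.02 with the TMM factor. Of 12 detected hypoxia response targets 4 were 2-fold higher and none lower, beside 4.95% and 2.14% of all detected genes. The list median was 0.78. Among the 4, Adm was detected only through its co-culture value, at 2.23 TPM there and 0.30 TPM in the control. The largest ratios there were 1.69 for Bhlhe40, 1.63 for Ankrd37 and 1.31 for Adm. The smallest were -0.18 for Ndrg1, the 1 lower gene of the 12, 0.18 for Slc2a1 and 0.23 for Ddit4. Car9 was not detected, at 0.39 TPM in co-culture and 0.38 TPM in the control. Vegfa, with a ratio of -0.30, and Angptl4, with 0.31, are known targets of the same pathway. Whether hypoxia has a part in any of these values was not tested.

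PPAR factors and their targets, which include known inducers of Angptl4, had 7 of 12 genes detected and none 2-fold lower, beside 2.14% of all detected genes. Ppard and Cpt1a had ratios of 0.61 and 0.50, and Ppara and Pparg were listed at 0 in both libraries. Some RNA-binding proteins act on the stability of Vegfa mRNA. By the 2-fold rule none of 5 such genes differed, beside 4.95% of all detected genes higher and 2.14% lower. Zfp36, which promotes decay, had a log2 ratio of 0.86, with 8.76 TPM in co-culture and 4.37 TPM in the control. Zfp36l2 and Elavl1 had ratios of 0.49 and 0.09. The ATF4 arm of the stress response, which can induce Vegfa, was 2-fold lower for all 6 genes listed for it, beside 2.14% of all detected genes, with a median of -2.40 and ratios of -4.90 for Ddit3, -3.62 for Trib3 and -2.97 for Chac1. The ratio of Angptl6, -3.19, lay within the range of these 6 genes and that of Vegfa did not. A part of the ATF4 arm in either value was not tested.

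Most markers of other cell types were at or near 0. Macrophage markers were detected for 2 of 13 genes (Cd68 and Cd14), the list summed to 40.6 TPM in co-culture and 66.7 TPM in the control, and 7 of the 13 were at 0 in both libraries, Adgre1, Fcer1g and Tyrobp among them. Cd68, 2-fold lower, had 27.8 TPM in co-culture and 57.7 TPM in the control, whereas Cd14 had 12.4 TPM in co-culture and 8.87 TPM in the control. Endothelial markers were detected for 1 of 11 genes, Egfl7, and summed to 51.4 TPM in co-culture and 49.8 TPM in the control, with Pecam1 and Erg listed at 0. Fibroblast and mural markers were detected for 2 of 11, Pdgfra and Tagln, and summed to 12.9 TPM in co-culture and 9.14 TPM in the control. In bulk RNA, fewer cells with a transcript and less of it per cell cannot be told apart.

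**Figure D5:**
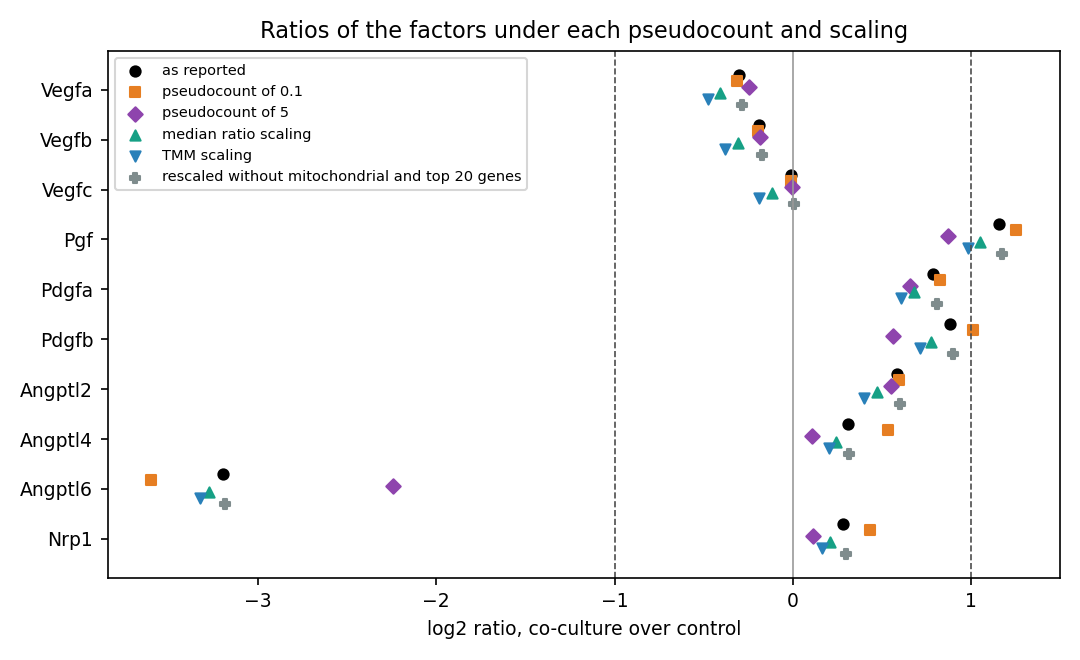
Log2 ratio, co-culture over control, of the 10 genes as reported (black) and under 2 other pseudocounts and 3 other scalings of the libraries, with dashed lines at 1 and -1. Angptl6 stays beyond -1 at every setting shown, from -3.60 to -2.24, while Pgf (0.87 to 1.25) and Pdgfb (0.56 to 1.01) fall on either side of 1.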

How the data were processed

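RNA was measured in 2 libraries of 4T1 cells, 1 per group, grouped by their treatment labels. The authors deposited 1 table of TPM values with 52796 rows, rounded to 2 decimals. Per the submitters' processing notes, HISAT2 2.1.0, RSEM 1.2.31 and GRCm38.p5 were used, in roles not given there. Neither annotation nor strandedness is stated, and TPM keeps no depth, so no counting intervals were computed. RSEM estimates divide shared reads between genes.

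Symbols (51633 of 51912 Ensembl rows matched) and 1-based positions came from GENCODE M21 (GRCm38), and promoters from RefSeq GRCm38.p6. Of 168 list symbols, 165 matched a row. Ratios used a pseudocount of 1, detection a mean TPM of at least 1, and calls a log2 ratio of 1 in either direction. Named genes were the 10 members and up to 3 detected genes with the largest absolute ratios per list, besides receptors and genes that a comparison needed. Members and lists were chosen with earlier results of these data known. The calculations used Python 3.11.15 with pandas 2.3.3. The scalings and the fold threshold were tested on simulated data, with median scaling and a smaller pseudocount than in the reported ratios. Changes planted there were larger than the threshold, so calls near it were not tested. The alternatives were pseudocounts of 0.1 and 5, 3 scalings, other expression filters, a log2 threshold of 2 and protein-coding genes only. Some listed genes are not reported here. No p-values were computed.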

Additional observations from a re-analysis of the deposited data

How the results depend on the processing

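No paired analysis was possible because each group had 1 library and the labels carry no replicate numbers, and for the same reason no library could be left out. Angptl6 was the 1 member 2-fold lower under every alternative tried. The number 2-fold higher was 2 at a pseudocount of 0.1, and 0 at a pseudocount of 5 and with the TMM factor. At the stricter log2 threshold of 2, the number of higher members was 0. Of 50 recomputed member ratios 46 kept their direction and their side of the threshold, and the exceptions were Pgf (0.87 at a pseudocount of 5, 0.98 with TMM), Pdgfb (1.01 at a pseudocount of 0.1) and Vegfc (0.0082 after rescaling without mitochondrial and the 20 most abundant genes).

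The members' median was 0.49 and 0.11 at pseudocounts of 0.1 and 5, 0.23 with the median ratio, 0.18 with TMM, 0.31 after rescaling, and -0.0089 over members with a mean TPM of at least 10. The ratio of summed VEGF ligand TPM was 0.97, and 0.90, 0.85 and 0.99 with these 3 scalings, and that of PDGF ligands was 1.69, 1.61 and 1.86. Over all detected genes, 557 were 2-fold higher and 241 lower. The numbers were 886 higher at a pseudocount of 0.1, 199 higher and 129 lower at 5, 345 higher and 354 lower with TMM, 406 higher with the median ratio, 244 higher and 120 lower at a mean TPM of at least 10, and 75 higher and 66 lower at a threshold of 2. Among protein-coding genes 155 were lower. Higher genes made up 69.8% of those past the threshold, 58.1% with the median ratio and 49.4% with TMM.

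The median of the mRNA stability list was -0.024 with the median ratio and -0.097 with TMM, that of the HIF regulators -0.020 with TMM, and that of the endothelial markers -0.072 and -0.144. The angiopoietin-like median was -1.30 at a mean TPM of at least 10. The cause of these moves was not tested. Depth is unknown, so the precision of low values such as those of Angptl4 and Nrp1 is not known.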

Other observations

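In a list of other factors with a role in vessel growth 5 of 14 genes with a row were detected. All 5 had higher values in co-culture, as did 64.5% of all detected genes. Of them 2 were 2-fold higher and none lower, beside 4.95% and 2.14% of all detected genes, with a median of 0.79. Apln, which encodes the vascular peptide apelin, had 26.3 TPM in co-culture against 5.79 TPM in the control, and Tgfa, an EGF receptor ligand, had 17.5 TPM against 5.37 TPM. The apelin difference, a log2 ratio of 2.01, was larger than that of any of the 10 members with a higher value. Efnb2, a marker of arterial identity, had a ratio of 0.79, while Fgf2, Hgf and Cxcl12 were at or below 0.03 TPM in co-culture and at or below 0.11 TPM in the control.

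Inhibitors of vessel growth were detected for 7 of 10 genes, 1 of them 2-fold higher and none lower, beside 4.95% and 2.14% of all detected genes, with a median of 0.44. Thbs1 (thrombospondin 1) had 18.3 TPM in co-culture against 5.83 TPM in the control. Serpinf1, which encodes the secreted inhibitor PEDF, had 26.4 TPM in co-culture against 46.7 TPM in the control, a log2 ratio of -0.80. Spry2, an intracellular brake on receptor tyrosine kinase signalling, had a ratio of 0.61.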
